A study of Mus musculus with 2 samples.

Results

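The genes described here are 10 mouse genes that handle reactive oxygen or bind metals, among 32285 genes counted in single cells of bone and marrow. They were listed by name and function, with no threshold on a measured value, though earlier results of these data were known when the list was made. They are 3 glutathione peroxidases (Gpx1, Gpx3 and Gpx4), the peroxiredoxin Prdx2, catalase (Cat), 2 superoxide dismutases (Sod1 and Sod3), 2 metallothioneins (Mt1 and Mt2) and haptoglobin (Hp). The cells came from the femurs and tibias of 3 male INK-ATTAC mice aged 24 months, a transgenic line in which the p16Ink4a promoter drives an inducible caspase 8. The paper calls these mice untreated, and no other genotype is named for these samples, so every cell carried the same transgene. Bone was digested with collagenase and marrow with Liberase, erythrocytes were lysed, cells with blood lineage markers (Ter-119 included) were depleted with magnets, and live CD45- cells were sorted, pooled and run in 2 lanes of 10x 3′ sequencing.

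Superoxide dismutases turn superoxide into hydrogen peroxide. Catalase, peroxiredoxins and glutathione peroxidases then break peroxides down, each in its own compartment and with its own electron donor. Red blood cells carry oxygen on haem iron, which makes superoxide and peroxide through their whole life, and they depend on cytosolic enzymes made before the nucleus is lost. Metallothioneins are small proteins that hold zinc, copper and cadmium on cysteines, and haptoglobin is a secreted protein that captures haemoglobin set free from red cells.

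Both lanes were deposited as replicates of the same group. They held the same cells, since 10928 of 11056 barcodes were in both and lane counts differed by less than the sampling noise, with a mean squared difference of 0.559 of the summed counts. They were counted as 1 sample and summed per barcode, so there is no replicate, no p-value was computed, and all intervals are exact 95% intervals that cover counting error only. Lane 1 held 116827845 and lane 2 held 120556381 unique molecular identifiers (UMIs, counted RNA molecules). The 9573 barcodes with at least 200 genes and at most 20% mitochondrial UMIs were kept, and 8564 fell into a class by marker genes. The labels call the sorted cells mesenchymal, yet erythroid cells were the largest class. There were 1757 LEPR stromal cells (the Cxcl12-rich stroma of marrow, with at least 1 Lepr UMI and 5000 CPM of Cxcl12), 83 fibroblasts, 47 endothelial cells, 88 megakaryocytes and 6589 erythroid cells. Levels are in CPM, a gene's UMIs per 1000000 UMIs, over the summed cells of a class. Markers kept out of the gates were highest in their own class for 6 of 6 LEPR stromal, 6 of 6 fibroblast, 6 of 6 endothelial, 6 of 6 megakaryocyte and 6 of 7 erythroid genes. Of 5 osteoblast markers, 4 were also highest in the fibroblast class, where the 5 summed to 6150 CPM against 4938 in LEPR stromal cells. Of 5 plasma cell markers, 3 were highest there, with a sum of 877 CPM. Whether the fibroblast class holds such cells was not tested. Erythroid cells were split by the share of their UMIs that were globin, into 1761 cells under 0.5%, 777 from 0.5 to 1%, 1678 from 1 to 2.5%, 1565 from 2.5 to 6% and 808 at 6% or more. The median depth was 5085 UMIs per LEPR stromal cell and ranged from 3185 (endothelial) to 41656 (globin 2.5 to 6%) in the other classes.

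In the GENCODE M21 annotation of GRCm38, Gpx1 lies at chr9:108338903-108340343, Gpx3 at chr11:54902453-54910377, Gpx4 at chr10:80047166-80056439, Cat at chr2:103453849-103485160 (minus strand), Sod1 at chr16:90220754-90226329 and Sod3 at chr5:52363791-52371418. Chromosome 8 holds Prdx2 at chr8:84969587-84974834, Hp at chr8:109575128-109579172 (minus strand) and the metallothionein pair, Mt2 at chr8:94172664-94173568 and Mt1 at chr8:94179082-94180327, with 5513 bases between them. Genes not marked minus are on the plus strand. Prdx2 overlaps Rnaseh2a by 181 and Junb by 351 bases, Sod1 overlaps Scaf4 by 650 bases and Mt2 overlaps the antisense gene Gm45774 by 749 bases, all on the opposite strand. The other members overlap no annotated gene.

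The 3 glutathione peroxidases are selenoproteins, and their coding sequences show it. Each holds 1 in-frame TGA codon, read as selenocysteine, the residue that reacts with peroxide. The stretches of 63 bases around it are shown, from transcripts Gpx1-201 (codon 47 of 202, the stop included), Gpx3-201 (codon 73 of 227) and Gpx4-201 (codon 129 of 254), with that codon in capitals. The codon numbers hold for these transcripts only, since each gene has 3 annotated coding transcripts. Which of them the cells used was not tested.
Gpx1: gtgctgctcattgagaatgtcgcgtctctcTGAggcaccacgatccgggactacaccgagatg
Gpx3: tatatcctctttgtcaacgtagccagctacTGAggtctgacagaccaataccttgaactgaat
Gpx4: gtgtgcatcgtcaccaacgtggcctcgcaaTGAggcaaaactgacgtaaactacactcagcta

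Mt1 and Mt2 are close copies, and their levels went together between the globin classes and between LEPR stromal cells and fibroblasts. Their coding sequences are shown for this reason. Between LEPR stromal and all erythroid cells their log2 ratios had opposite signs (0.34 for Mt1 and -0.32 for Mt2). Both coding sequences have 186 bases and 61 codons before the stop, of which 20 code for cysteine, and the cysteines of both stand at the same 20 positions. The sequences are equal at 148 of 186 bases (79.6%). They are shown from transcripts Mt1-201 and Mt2-201, with the cysteine codons, which hold the metal, in capitals.
Mt1: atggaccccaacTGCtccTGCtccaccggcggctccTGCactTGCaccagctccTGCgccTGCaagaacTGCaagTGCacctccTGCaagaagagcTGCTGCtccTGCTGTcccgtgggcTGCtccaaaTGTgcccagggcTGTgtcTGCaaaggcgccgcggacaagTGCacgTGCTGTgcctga
Mt2: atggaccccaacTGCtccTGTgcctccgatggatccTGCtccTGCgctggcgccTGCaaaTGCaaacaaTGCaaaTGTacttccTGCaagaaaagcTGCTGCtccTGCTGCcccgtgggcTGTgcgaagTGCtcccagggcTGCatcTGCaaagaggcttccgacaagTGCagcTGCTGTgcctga

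Metal-induced transcription of these genes goes through metal response elements, which the zinc sensor MTF1 binds. RefSeq start sites were matched for 8 of 10 members (not Sod3 and Hp) on GRCm38.p6, and their 250 bases upstream were searched on both strands for the core TGCACNC or TGCGCNC. It was in 21.4% of 32851 such windows of all genes, and 1.26% held it 3 or more times. Mt2 held 3 cores, Mt1 held 1, and the windows of the other matched members held 0. The antioxidant response core TGACNNNGC, in 10.2% of all windows, was found once each for Mt2 and Sod1. The windows of Mt1 (chr8:94178839-94179088) and Mt2 (chr8:94172368-94172617) are shown on the plus strand with the metal response cores in capitals. The Mt2 window ends 46 bases before the GENCODE start of the gene and the Mt1 window runs 7 bases into it, so sequence further downstream was not searched. The counts hold for these windows only and need not be the number of elements in either promoter, so Mt1 and Mt2 cannot be ranked by them.
Mt1: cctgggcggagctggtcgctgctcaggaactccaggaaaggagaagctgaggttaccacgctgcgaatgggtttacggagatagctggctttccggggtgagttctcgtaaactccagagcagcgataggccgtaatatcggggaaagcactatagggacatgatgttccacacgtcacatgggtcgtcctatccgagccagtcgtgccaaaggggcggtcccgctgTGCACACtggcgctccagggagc
Mt2: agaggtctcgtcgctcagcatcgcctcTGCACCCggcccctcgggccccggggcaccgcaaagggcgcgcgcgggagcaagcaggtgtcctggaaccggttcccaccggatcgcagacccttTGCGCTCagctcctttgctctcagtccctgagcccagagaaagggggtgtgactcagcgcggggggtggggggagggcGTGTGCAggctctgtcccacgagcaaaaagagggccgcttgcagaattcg

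The members divided the cell classes among themselves. Hp and Gpx3, whose proteins are secreted, were highest in LEPR stromal cells, and Sod3, the secreted superoxide dismutase, was highest in fibroblasts together with Mt1 and Mt2. Prdx2 and Gpx1, both cytosolic, were highest in erythroid cells with the most globin. Gpx4, which repairs peroxidised membrane lipids, was highest in megakaryocytes. By summed counts Cat and Sod1 differed least, with 2.79-fold and 2.35-fold between the highest and the lowest class, though the lowest for Cat rests on 3 endothelial UMIs. With CPM averaged over cells Cat ran from 16.4 to 109 and Sod1 from 119 to 379. Summed over the 10 genes, the members made up 0.714% of all UMIs in LEPR stromal cells, 0.753% in erythroid cells with at least 6% globin and 0.124% in endothelial cells.

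**Figure D1:**
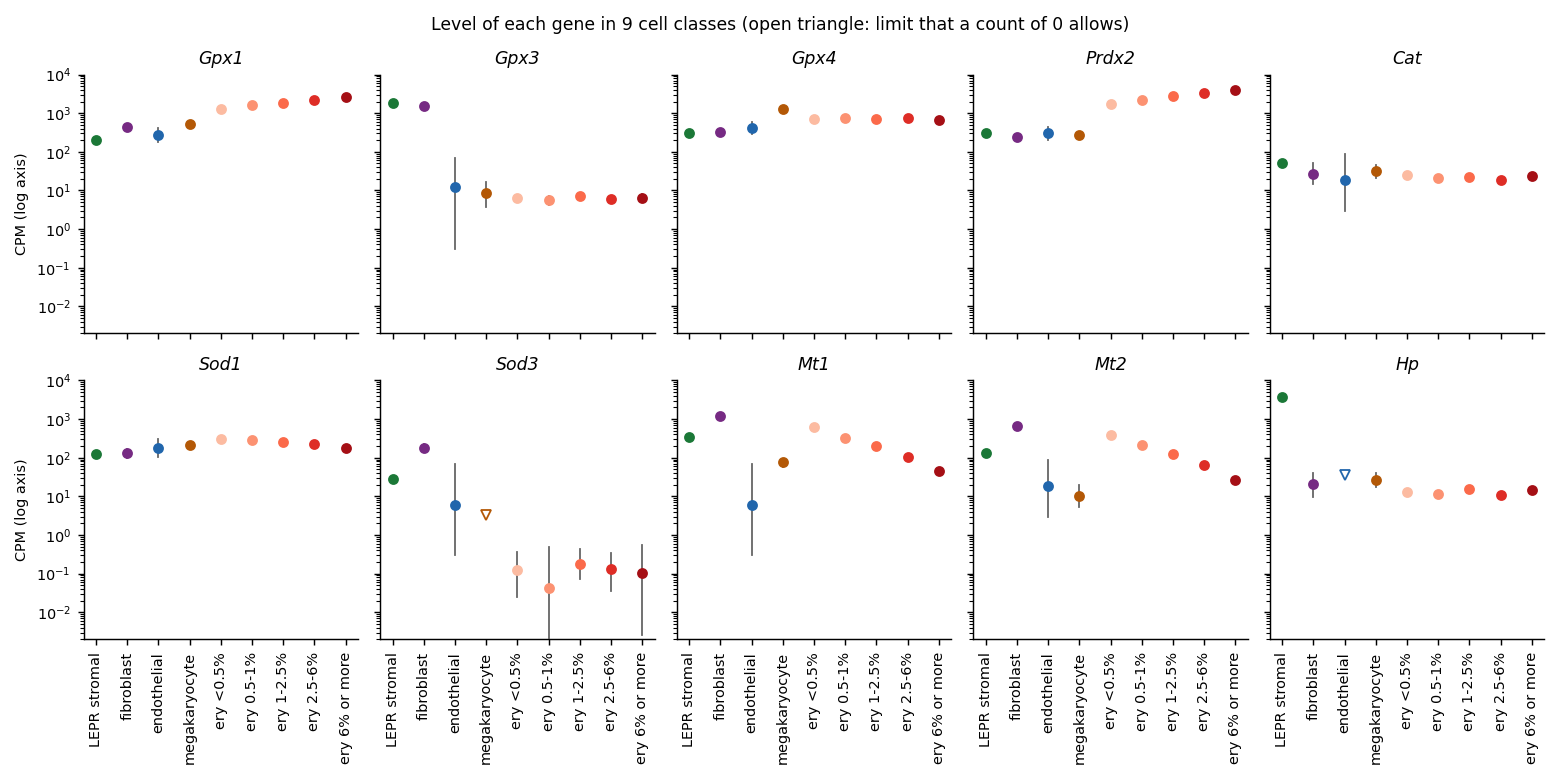
Level of each of the 10 genes (y axis, CPM, log axis) in 9 cell classes (x axis), with exact 95% counting intervals as lines and an open triangle at the limit that a count of 0 allows. Hp, Gpx3, Sod3 and Mt1 span more than 100-fold between classes (for Mt1, the lowest is 1 UMI in endothelial cells), while Sod1 and Cat stay within 3-fold in these summed counts (for Cat, the lowest is 3 UMIs in endothelial cells).

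Among the secreted members, Hp had 3816 CPM in LEPR stromal cells (interval 3761 to 3872; 3810 in lane 1 and 3822 in lane 2). It had 26.4 CPM in megakaryocytes, 20.3 in fibroblasts and 10.9 to 15.7 in the 5 erythroid classes. No Hp UMI was seen in the 47 endothelial cells, which allows up to 36.6 CPM. After LEPR stromal cells the interval of each class overlapped that of the next in order of level, though megakaryocytes (17.4 to 39.7) lay above 4 of the 5 erythroid classes, whose intervals ran from 9.64 to 17.2, and overlapped the class with at least 6% globin (12.7 to 17.6). The megakaryocyte level rests on 8 of 88 cells, with up to 33 UMIs in a cell, and was 0 CPM without the fullest 9 cells. Of LEPR stromal cells, 94.5% (exact binomial interval 93.3 to 95.5) held an Hp UMI, and after thinning lane 1 to 1000 UMIs per cell 84.6% did, against 6.02% of fibroblasts and 0.996% of erythroid cells. The spread between LEPR stromal cells was wide, with a variance 3.61 times the mean in thinned cells and up to 34 UMIs in a cell, around a median of 2. Neutrophils also make Hp, and the 7 neutrophil markers summed to 15.4 CPM in LEPR stromal cells, 0 in fibroblasts and 4.07 in erythroid cells. The 5 macrophage markers (Adgre1, Csf1r, Cd68, C1qa and Vcam1), 4 of them with UMIs, summed to 1305 CPM in LEPR stromal cells. That sum is not split by gene here, so it is no measure of macrophage content. The magnetic depletion included CD11b and Gr-1, and the sort took CD45- cells. The part of neutrophils and macrophages in the Hp level was not tested.

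Gpx3, the plasma glutathione peroxidase, was shared by both mesenchymal classes. It had 1824 CPM in LEPR stromal cells (1786 to 1863) and 1529 in fibroblasts (1414 to 1654), and 5.50 to 12.2 CPM in the other classes, whose intervals overlapped in order of level. Fibroblasts were the more uneven of both, since thinned to 1000 UMIs 48.2% of them held a Gpx3 UMI against 74.3% of LEPR stromal cells, and 8 of 83 fibroblasts held 44.4% of the class's Gpx3 UMIs. Without these 8 cells the fibroblast level was 1037 CPM, against 1539 CPM in LEPR stromal cells without their fullest 176 cells.

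Sod3, which works on superoxide outside cells, was the reverse of Hp within the mesenchyme. It had 179 CPM in fibroblasts (141 to 224) and 27.7 in LEPR stromal cells (23.3 to 33.0), where 50.6% and 10.8% of cells held a UMI. In erythroid cells it had 28 UMIs in all, or 0.131 CPM, and 0 UMIs in megakaryocytes, which allows up to 3.23 CPM.

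The low erythroid sums of Hp and Gpx3 can be set beside those of the stromal gene Cxcl12. Per 1000 Cxcl12 UMIs there were 165 Hp UMIs in LEPR stromal cells and 166 to 243 in the 5 erythroid classes, and 78.8 Gpx3 UMIs in LEPR stromal cells against 79.3 to 116 in the erythroid classes. In fibroblasts the same ratios were 45.0 for Hp and 3394 for Gpx3, and in megakaryocytes 232 and 75.8. For Sod3 it was 397 in fibroblasts, 1.20 in LEPR stromal cells and 0.629 to 2.42 in the erythroid classes. Whether the erythroid UMIs of Hp, Gpx3 and Sod3 came from stromal RNA in these barcodes or from the erythroid cells was not tested.

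Against all erythroid cells together, 4 members were higher and 4 lower by at least 2-fold in LEPR stromal cells. Of the 12431 genes with at least 100 UMIs over both groups, 44.4% were higher and 20.9% lower by this measure, so 4 of 10 members higher is close to the share among all genes. The median log2 ratio was 0.01 for the members and 0.70 for all genes. Hp (log2 ratio 8.18, interval 8.11 to 8.26), Gpx3 (8.15, 8.03 to 8.26), Sod3 (7.72, 6.93 to 8.64) and Cat (1.22, 1.03 to 1.42) were higher in LEPR stromal cells. When CPM was averaged over cells the ratio of Cat was 0.67 and its call was lost. For the first 3 the source of the low erythroid level was not tested.

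Prdx2 and Gpx1 were the members lowest in LEPR stromal cells relative to erythroid cells, with log2 ratios of -3.19 (-3.26 to -3.11) and -3.19 (-3.29 to -3.10), or 9.12-fold and 9.15-fold. Gpx4 was lower by 2.33-fold (309 against 719 CPM). Sod1, the copper and zinc superoxide dismutase of the cytosol, stood at the threshold with 127 against 254 CPM (2.01-fold), and its log2 ratio of -1.01 moved to between -0.88 and -0.99 under 7 of the alternatives, so that its call depends on them. Lane 1 alone was among them (-0.99). Mt1 (339 against 268 CPM) and Mt2 (136 against 170 CPM) differed by under 1.3-fold.

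**Figure D2:**
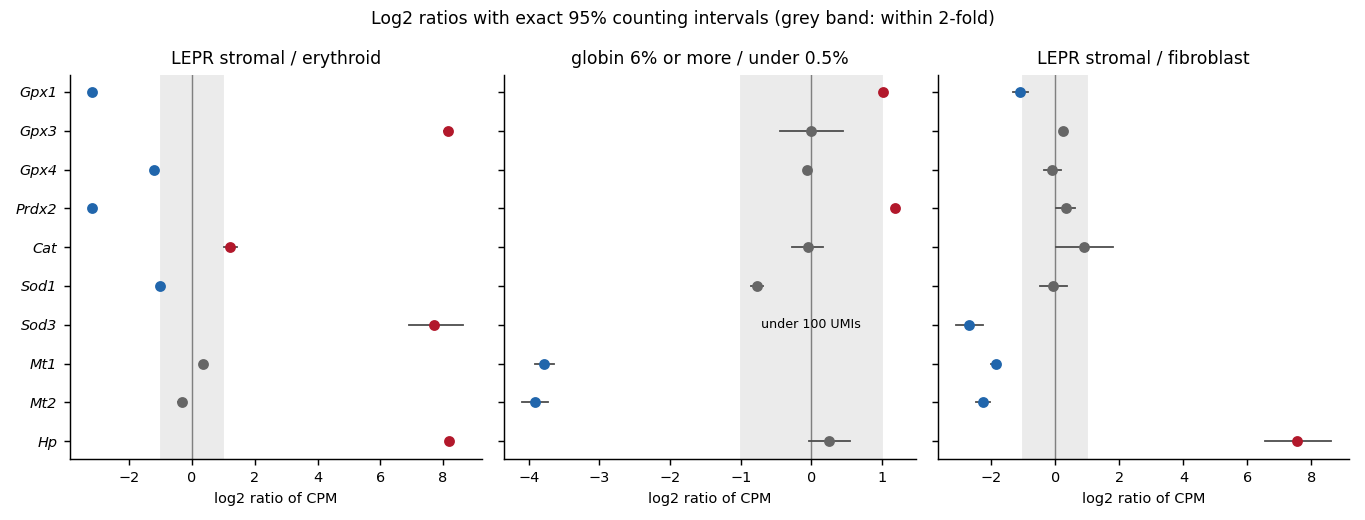
Log2 ratio of CPM (x axis) for each gene (y axis) in 3 comparisons, with exact 95% counting intervals as lines and the range within 2-fold shaded in grey; red and blue points are past 2-fold upward and downward. Hp, Gpx3 and Sod3 stand near 8 in the comparison with erythroid cells, and Mt1 and Mt2 near -4 between the globin classes.

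LEPR stromal cells under the median globin share of their class had log2 ratios to erythroid cells of -3.23 for Prdx2, -3.33 for Gpx1 and -1.11 for Gpx4. The levels of Prdx2 in LEPR stromal cells (303 CPM), endothelial cells (299), megakaryocytes (273) and fibroblasts (243) had overlapping intervals in that order.

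Within the mesenchyme, LEPR stromal cells and fibroblasts differed in 5 members by at least 2-fold. Only Hp was higher in LEPR stromal cells (log2 ratio 7.56, 6.55 to 8.60, 188-fold), where 23.2% of 9391 genes tested were. Mt2 (-2.26, -2.47 to -2.05), Sod3 (-2.69, -3.10 to -2.26), Mt1 (-1.87, -2.01 to -1.72) and Gpx1 (-1.10, -1.33 to -0.87) were lower, or 4 of 10, against 7.11% of all genes tested. The median was -0.09 for members and 0.31 for all genes. Gpx3 (0.25), Gpx4 (-0.10), Prdx2 (0.32), Cat (0.89) and Sod1 (-0.08) were within 2-fold, and for Cat the interval of 0.01 to 1.81 spans values on both sides of the threshold, as it had 23 UMIs in fibroblasts. With lane 1 alone the log2 ratio of Cat was 1.23 and with lane 2 alone 0.65, and in the deeper cells of each class it was 1.84, so its place against the threshold depends on the cells and lane used. Prdx2 was -1.15 when the 142 cells meeting several gates were kept in the first class they met, 110 of them in LEPR stromal cells with the erythroid gate met as well and 7 meeting the fibroblast and erythroid gates.

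The fibroblast metallothioneins were uneven between cells. Mt1 had 1238 CPM (1135 to 1351) and Mt2 653 (578 to 735), and the 8 cells of 83 with the most UMIs of each held 60.4% of the Mt1 and 69.0% of the Mt2 UMIs, with up to 198 and 143 UMIs in a cell. The fullest 176 of 1757 LEPR stromal cells held 50.5% and 60.3%, and the fullest 81 of 808 erythroid cells with at least 6% globin held 65.9% and 73.2%, so such shares were not particular to fibroblasts. Without those 8 cells the levels were 591 and 242 CPM, against 194 and 61.9 CPM in LEPR stromal cells without their fullest 176 cells. In cells thinned to 1000 UMIs the variance was 5.62 times the mean for Mt1 and 3.41 times for Mt2, against 1.53 and 1.38 in LEPR stromal cells. Across fibroblasts the counts of both genes had a Pearson r of 0.829 over 83 thinned cells of 1 pooled sample. Without the 2 highest cells it was 0.432, and it was 0.244 over 1632 LEPR stromal cells. Of 5 genes listed for stress and RNA quality, 3 were highest in fibroblasts. These were the immediate early genes Fos and Jun, which tissue digestion can induce, with 2540 and 2092 CPM against 498 and 379 in LEPR stromal cells, and the heat shock gene Hspa1b with 480 against 30.7 CPM. The nuclear RNA Malat1 went the other way (37359 against 75010 CPM), so the list summed to 43161 CPM in fibroblasts and 76408 in LEPR stromal cells. The part of these genes in the metallothionein levels was not tested.

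**Figure D3:**
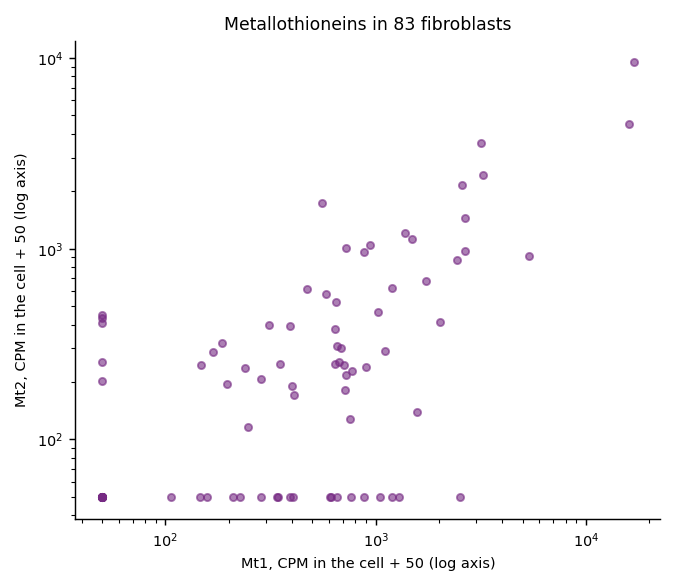
Mt1 (x axis) and Mt2 (y axis) in each of 83 fibroblasts, as CPM in the cell plus 50, on log axes, where points at 50 had no UMI of that gene. The 2 cells at the upper right hold 198 and 43 Mt1 UMIs and stand apart from the rest.

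The UMI ratio of the pair was more even than its level. There were 1.58 Mt1 UMIs per Mt2 UMI over all erythroid cells (1.55 to 1.61), and 1.51 to 1.72 in the 5 globin classes while the level changed many times over. The ratio was 1.90 in fibroblasts (1.64 to 2.20), 2.49 in LEPR stromal cells (2.27 to 2.73) and 7.37 in megakaryocytes (3.59 to 15.2), where Mt2 had 19 UMIs.

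Along the globin classes of erythroid cells, the members went separate ways. From under 0.5% to 6% or more globin, Mt1 and Mt2 fell and Prdx2 and Gpx1 rose by at least 2-fold, and Gpx4 stayed level. Of 9585 genes tested, 4.40% were higher in the globin-rich class against 2 of 9 members tested, and 28.4% were lower, also against 2 of 9. Sod3, with 8 UMIs in both classes, was not tested. The median log2 ratio was -0.05 for the members and -0.52 for all genes.

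Mt1 had 621, 323, 202, 105 and 45.2 CPM in the classes from least to most globin. Mt2 had 394, 214, 128, 63.3 and 26.3 CPM. Each step down was outside the counting intervals, and from end to end the log2 ratio was -3.78 for Mt1 (-3.92 to -3.64; 13.7-fold) and -3.91 for Mt2 (-4.09 to -3.73). The sum of 5 plasma cell markers also fell along these classes, at 1355, 604, 233, 171 and 120 CPM. Its part in the metallothionein fall was not tested. Prdx2, which reduces peroxide in the red cell cytosol, had 1737, 2228, 2784, 3358 and 3956 CPM in the same order (log2 ratio 1.19, 1.17 to 1.21). Gpx1 had 1292, 1610, 1865, 2160 and 2601 CPM (1.01, 0.99 to 1.03), just past the threshold, and with at least 500 genes per cell it no longer passed (1.00 after rounding). Both climbed at every step.

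Sod1 had 297, 288, 255, 233 and 175 CPM, a log2 ratio of -0.77 (-0.85 to -0.69), which did not reach 2-fold. Gpx4 stayed between 686 and 732 CPM in all 5 classes, which is a log2 ratio of -0.06 from end to end. Cat had 24.8, 20.5, 22.0, 19.1 and 23.9 CPM and did not follow the globin share in these sums. Among LEPR stromal cells Cat had 51.0 CPM (44.9 to 57.9), with 18.6% of cells holding a UMI.

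Depth moved with the globin classes. Of the cells under 0.5% globin, 769 had 2000 to 10000 UMIs and these held 20336 CPM of the noncoding RNA Gm26917, against 464 CPM in the 971 cells with at least 10000 UMIs. In these shallower cells Mt1 stood at 266 against 657 CPM, Prdx2 at 844 against 1830 and Sod1 at 452 against 281. With only erythroid cells of at least 10000 UMIs the log2 ratios along globin stayed past 2-fold, at -3.88 for Mt1, -4.03 for Mt2, 1.14 for Prdx2 and 1.02 for Gpx1. With cells of 1000 CPM or more of Gm26917 left out they were -3.91, -4.05, 1.11 and 1.05. The metallothionein fall was smaller in cells of 2000 to 10000 UMIs, where Mt1 went from 266 CPM (246 to 289) to 46.6 (26.4 to 81.1) and Mt2 from 142 (127 to 159) to 29.4 (14.2 to 59.0). In these cells the 3 middle classes were not apart for Mt1, at 98.6, 76.3 and 73.5 CPM with overlapping intervals. CPM averaged over cells gave log2 ratios of -3.12 for Mt1 and -3.18 for Mt2.

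**Figure D4:**
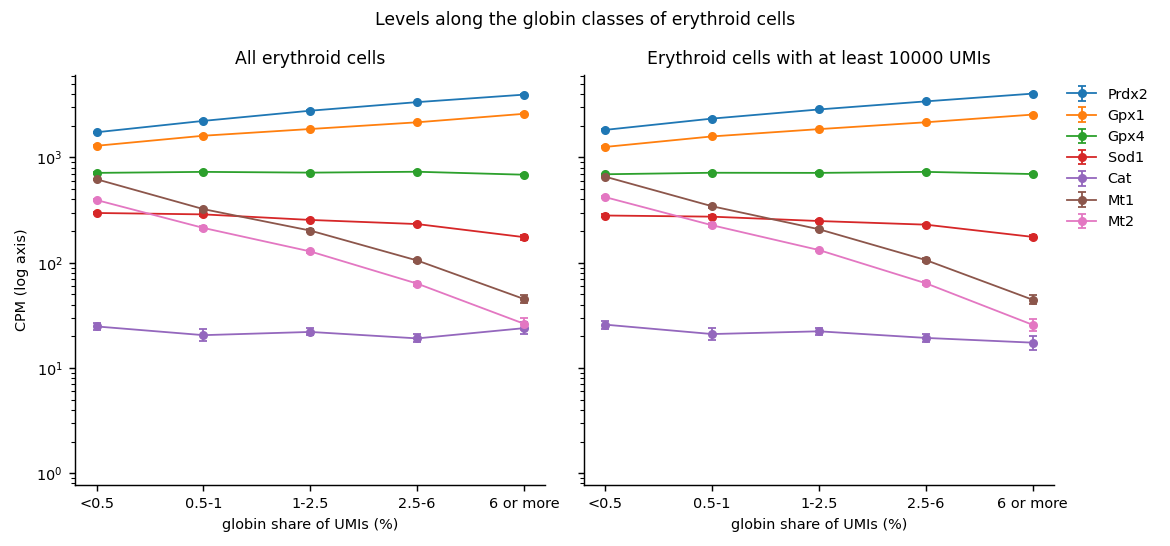
CPM (y axis, log axis) of 7 members in erythroid cells by globin share (x axis, percent of UMIs), for all cells on the left and cells with at least 10000 UMIs on the right, with exact 95% counting intervals. Mt1 and Mt2 fall at every step and Prdx2 and Gpx1 climb in both panels, and Cat ends at 23.9 CPM on the left and 17.4 CPM on the right.

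The steady sum of Cat hid a group of cells. Of the 808 cells with at least 6% globin, 171 had under 2000 UMIs, 121 had 2000 to 10000 and 516 had at least 10000. Cat had 345 CPM (251 to 463) in the first group, 64.3 to 140 by its interval in the second (55 UMIs) and 17.4 (14.9 to 20.3) in the third. That is 19.8-fold more in the shallowest than in the deepest cells, from 88 UMIs in 50 of 171 cells. The split by depth was made after the values had been seen.

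Gpx1 was also higher in the shallowest globin-rich cells, with 4174 CPM against 2556 (log2 ratio 0.71, 0.58 to 0.83). Prdx2 went the other way with 1777 against 4044 CPM (-1.19, -1.38 to -0.99), and Gpx4 had 149 against 696 CPM (-2.22, -2.96 to -1.58). Of 6934 genes with at least 100 UMIs over both groups of cells, 13.2% were higher and 60.1% lower in the shallow cells, with a median log2 ratio of -1.46, against 5 and 2 of the 9 members tested. Of the 5, Mt1, Mt2, Hp and Gpx3 rested on 24, 15, 9 and 4 UMIs in the shallow cells. Sod1 had 106 against 176 CPM with an interval of -1.55 to 0.07. A lower Prdx2 level in shallower cells was not particular to the globin-rich class. Cells of 2000 to 10000 UMIs had 1012 CPM against 2342 in cells of at least 10000 UMIs at 0.5 to 1% globin. The same levels were 1142 against 2861 CPM at 1 to 2.5% globin and 1429 against 3414 CPM at 2.5 to 6%.

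These shallow cells had other features that the split did not use. Their median globin share was 11.6% and their median mitochondrial share 0.461%, against 8.01% and 2.75% in the deepest cells of the class. Bpgm, which makes the compound that tunes oxygen release from haemoglobin, had 2464 CPM against 42.5, and was named after its values were seen. Gm26917 had 530 CPM there. In the 21 cells of the same depth with under 0.5% globin it had 5786 CPM, and Cat had 32.1 CPM from 1 UMI (1.63 to 358), an interval that overlaps that of the globin-rich cells. In the 31 cells of this depth with 2.5 to 6% globin, Cat had 179 CPM from 8 UMIs (48.8 to 458) and Bpgm 1029 CPM. The cells of that class with at least 10000 UMIs had 19.3 and 31.2 CPM. At this shallow depth, cells with 1 to 2.5% and 0.5 to 1% globin held 3 and 0 Cat UMIs and 0 Bpgm UMIs. At 2000 to 10000 UMIs the intervals of Cat were apart, at 10.1 to 20.5 CPM in 769 cells with under 0.5% globin and 64.3 to 140 CPM in 121 cells with at least 6%. Averaging CPM over cells, which gives shallow cells equal weight, put the log2 ratio of Cat between the outer globin classes at 2.43 in place of -0.05, and that of Sod1 at -1.30.

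**Figure D5:**
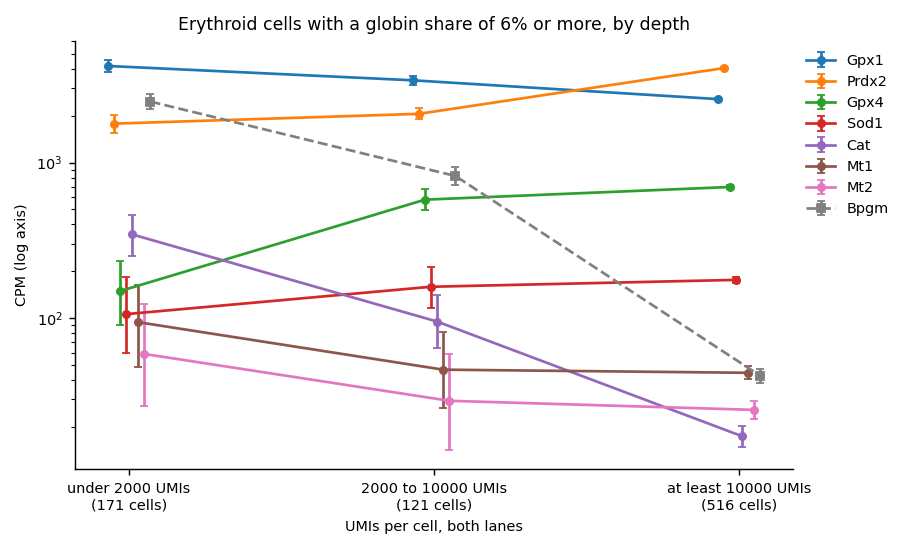
CPM (y axis, log axis) of 7 members and Bpgm (dashed) in erythroid cells with at least 6% globin, by UMIs per cell (x axis, 3 groups of 171, 121 and 516 cells), with exact 95% counting intervals. Cat and Bpgm are highest in the shallowest cells, and Prdx2 and Gpx4 in the deepest.

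Gpx4 was highest in megakaryocytes by its summed level. It had 1307 CPM there (1235 to 1383), against 732 in the next class, erythroid cells with 2.5 to 6% globin, and 309 in LEPR stromal cells. After thinning to 1000 UMIs, 68.1% of 72 megakaryocytes (56.0 to 78.6) held a Gpx4 UMI against 51.1% of erythroid cells (49.9 to 52.3). The nearest class by this share, erythroid cells with 0.5 to 1% globin, had 54.9% (51.2 to 58.4), and its interval overlapped that of megakaryocytes. The 9 megakaryocytes fullest in Gpx4 held 60.7% of its UMIs, and without them the level was 1359 CPM. With CPM averaged over cells the megakaryocyte level was 2327, so it depends on how cells are weighted. Gpx1 (515 CPM) in megakaryocytes overlapped fibroblasts (436) and was below every erythroid class, and Sod1 (208 CPM) overlapped erythroid cells with 2.5 to 6% globin (233).

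Among 51 further genes of the same pathways, 18 of 49 tested were higher and 15 lower in LEPR stromal than in erythroid cells, beside 44.4% and 20.9% of all genes tested. Gpx8, a peroxidase of the endoplasmic reticulum, had 335 against 0.966 CPM, Mgst1 384 against 1.14, and Cp, the plasma copper protein that oxidises iron, 1225 against 3.73. Lower were Blvrb, a biliverdin and flavin reductase, with 140 against 2068 CPM, Mgst3 with 44.1 against 623 and Glrx5, needed for iron-sulphur clusters, with 88.7 against 913. By group, 7 of 18 peroxidases and thiol proteins were higher and 6 lower, as were 5 and 5 of 12 genes of glutathione and NADPH, while of 6 metal genes and regulators 3 were higher and 0 lower. The shares higher among the first 2 groups were near that of all genes, 44.4%, and with so few genes nothing particular to a group is read from these counts.

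Between the outer globin classes 4 of 42 pathway genes were higher and 5 lower, beside 4.40% and 28.4% of all genes tested. Mgst3 went from 228 to 1201 CPM (log2 ratio 2.40) and Blvrb from 1403 to 2830 (1.01), and Slc30a1, a zinc exporter that MTF1 controls, from 6.22 to 13.2 (1.09) while the metallothioneins fell. Gsto1 (75.1 to 15.7 CPM), Prdx6 (316 to 130) and Nfe2l2, which encodes the antioxidant regulator NRF2 (92.3 to 40.2), were lower. Between LEPR stromal cells and fibroblasts 9 of 45 were higher and 3 lower, near the 23.2% and 7.11% of all genes tested. Cp (1225 against 133 CPM) and glutathione reductase Gsr (177 against 27.4) were higher in LEPR stromal cells, and Srxn1, which restores overoxidised peroxiredoxins (13.1 against 48.9), and the copper chaperone Atox1 (114 against 279) were higher in fibroblasts.

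The genes whose levels followed a member most closely over the 9 classes were sought among 5624 genes by the correlation of log2(CPM + 1). For Gpx3 they were C3 and Cxcl14 (both r = 0.993), for Sod3 Serpinf1 (0.996) and Aebp1 (0.994), and for Hp Pappa (0.971) and Kng1 (0.962). Prdx2 was most like Hist1h4c and Atg4b (both 0.996), Gpx1 like Ctcf (0.991) and Svip (0.990), and Gpx4 like Atp5k (0.995) and Calm3 (0.993). The closest were lower for Cat (P2ry14, 0.951), Mt1 (Zfp622, 0.936) and Mt2 (Thap12, 0.938), and Sod1 was nearest to Cfdp1 (0.992). The 9 points come from the same 2 lanes, and 5 of them are erythroid, so r is a description.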

How the data were processed

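Single-cell RNA-seq of 1 pooled sample run in 2 lanes was used. The authors deposited UMI counts for each lane as a sparse matrix of genes by barcodes, not normalized. The submitters' processing notes name Cell Ranger, R 4.0.3, Seurat 4.0 and the build mm10. The header of the counts and the methods name different versions of Cell Ranger. Of 32285 gene identifiers, 32235 are in GENCODE M21.

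Counts were summed per barcode over both lanes, barcodes filtered (at least 200 genes, at most 20% mitochondrial UMIs) and classes gated by markers. Fibroblasts, endothelial cells and megakaryocytes needed 4 gate markers and 1000 CPM of them, erythroid cells 3 and 500 CPM. These limits were set after the markers' values had been seen, and 142 cells meeting several gates were left out, as were 867 in no class. Doublets were removed only through this rule. Globin share used the 7 listed globin genes found in the files. As a molecule can be read in either lane or both, Poisson, conditional binomial and exact binomial (Clopper-Pearson) intervals (95%) for levels, ratios and shares of cells were used, with the mean of the lanes for levels and ratios, and 3 counts as the limit for a count of 0. A gene was called past 2-fold with at least 100 UMIs. Python 3.11.15, numpy 2.4.6, scipy 1.17.1 and pandas 2.3.3 were used. On simulated counts for LEPR stromal against erythroid cells (12891 genes, 200 changed 2-fold), 85.5% of the changed genes' intervals lay on the right side of 0, 98.0% of the changed genes' intervals held the true value and 4.08% of the unchanged genes' intervals lay off 0.

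The members and lists were chosen with earlier results of these data known. Named beside the members are, of the pathway list, the 5 or fewer highest and lowest ratios per comparison and the same direction in each lane, and the 2 genes most like each member, among genes reaching 50 CPM in a class and 500 UMIs in all. Alternatives were a mitochondrial limit of 10%, at least 500 genes, each lane alone, CPM without globin, CPM averaged over cells, at least 20 UMIs per gene, mixed cells kept, a stricter LEPR stromal gate and LEPR stromal cells low in globin. The deeper cells of each class, erythroid cells under 1000 CPM of Gm26917 and erythroid cells with at least 10000 UMIs were added after seeing the data.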

Additional observations from a re-analysis of the deposited data

How the results depend on the processing

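No member's ratio that was past 2-fold changed sign under any alternative. Of the counts of genes or members past 2-fold, recomputed under alternatives, 134 stayed within 1.5 times the reported count and 6 did not. Of the members' own log2 ratios, 289 stayed within the reported counting interval and 60 did not. The counts that moved were, between the outer globin classes, 1 member higher with at least 500 genes per cell and 638 genes higher by CPM averaged over cells, and, between LEPR stromal cells and fibroblasts, 3414 genes higher and 1241 lower with at least 20 UMIs per gene, and 2 members higher in the deeper cells of each class. Leaving out each lane gave 1 to 2 members higher there (2 without lane 2, where Cat reached 1.23). Single calls also changed. Cat against erythroid cells was lost by CPM averaged over cells (log2 ratio 0.67). Prdx2 was lower in LEPR stromal cells than in fibroblasts when mixed cells were kept (-1.15). The cause was not tested. No paired analysis was possible because the only group is 1 pooled sample. Depth limits the endothelial class most, where a count of 0 allows up to 36.6 CPM.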

Other observations

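The 867 cells that met no gate held members at levels unlike any single class, with 658 CPM of Mt1, 282 of Mt2, 278 of Hp, 783 of Gpx1 and 179 of Gpx3. Immunoglobulin genes led in them (Igkc 69418 CPM), and neutrophil genes were present (S100a9 661 CPM, Elane 602). The 1483 barcodes left out by the filters had 605 CPM of Gpx1, 548 of Prdx2 and 59.3 of Hp. No comparison rests on either set.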
